A study of Arabidopsis thaliana with 4 samples.

Results

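The genes described here are 62 Arabidopsis thaliana genes whose ratio between apetala1 and wild-type inflorescence RNA lay moderately to one side on every array. Each had a log2 ratio of 0.4 or more, or 1.32-fold, on each of the 4 arrays, without reaching 1, or 2-fold, on all 4. They were chosen from 5051 genes that had a probe annotated to that locus alone and a value on all 4 arrays. One more gene within these bounds, AT4G32460, was left out by the rule. The values that chose the genes are the values reported, so their size and sign are a description and carry no test.

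Total RNA of apetala1 mutant inflorescences and of wild-type inflorescences was hybridised together on each of 4 two-colour arrays of long oligonucleotides, sets 1 to 4. The mutant RNA was in channel 1 on sets 1 and 3 and in channel 2 on sets 2 and 4. The labels give no allele, strain, age or stage for either genotype. They are silent on whether the sets had plants of their own, so the spread between sets may be technical. The comparison asks which RNAs are more or less abundant in inflorescences that lack APETALA1 function.

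APETALA1 (AP1) is a MADS-domain transcription factor that gives floral meristems their identity and is needed for sepals and petals. Loss of AP1 function alters the outer floral organs and lets secondary flowers form within flowers, so a mutant inflorescence differs from the wild type in its mix of organs and stages. In RNA of whole inflorescences, fewer cells of a type and less RNA per cell cannot be told apart.

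The sign of the ratio has 2 limits that hold for every value below. The labels name neither dye nor numerator, so neither genotype can be called the higher one, and values are given in the sign of sets 1 and 3 as deposited. The values of sets 2 and 4 were turned in sign to follow the exchanged channels. As deposited, then, each of the 62 genes was positive on sets 1 and 3 and negative on sets 2 and 4. If the authors had already set all columns to the same genotype direction, this alternation would follow the channel and not the genotype. A difference between the channels and a difference between the genotypes cannot be told apart from these columns. Among the 5051 genes, 78, or 1.54%, were at 0.4 or more on each array after turning and 50, or 0.990%, were at -0.4 or less. Left as deposited, with no array turned, 7 and 9 genes met these bounds, or 0.139% and 0.178%. Where the values at the deposited limits were kept as well, 81 and 9 of 5366 genes did so with no array turned, or 1.51% and 0.168%, and 45 of the 81 were at 1 or more on each array. In limma that setting called 152 features, against 56 as reported, and 0 of the 62 genes. These counts do not settle the orientation.

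The arrays held 26474 probes, of which 26367 to 26436 had a value on a given set. Precision is limited by there being 4 arrays. The targeted gene, AP1, had no value from a probe of its own. Of 18 inflorescence markers looked for by symbol, 1 was measured in this way, the ovule gene INO at 0.17 ± 0.32 (SD, n = 4), so the labelled tissue and genotype could not be checked closely. Of 35 markers of inflorescence, meristem, anther and green tissue, 6 were measured, with mean log2 ratios from -0.71 to 0.17, and 0 were among the 62 genes. The part of tissue makeup in the values below was not tested.

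The 62 genes had mean log2 ratios from 0.55 to 1.96, or 1.46-fold to 3.89-fold. Their median was 1.0, against -0.03 over all 5051 genes, of which the middle 80% lay between -0.35 and 0.37. The mean was at least 1 for 31 genes and below 1 for the other 31. A symbol in the gene table was available for 13 of them, or 21.0%, against 10.2% of the 5051 genes. The other 49 are known here by locus name only, and no role is given for them.

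**Figure D1:**
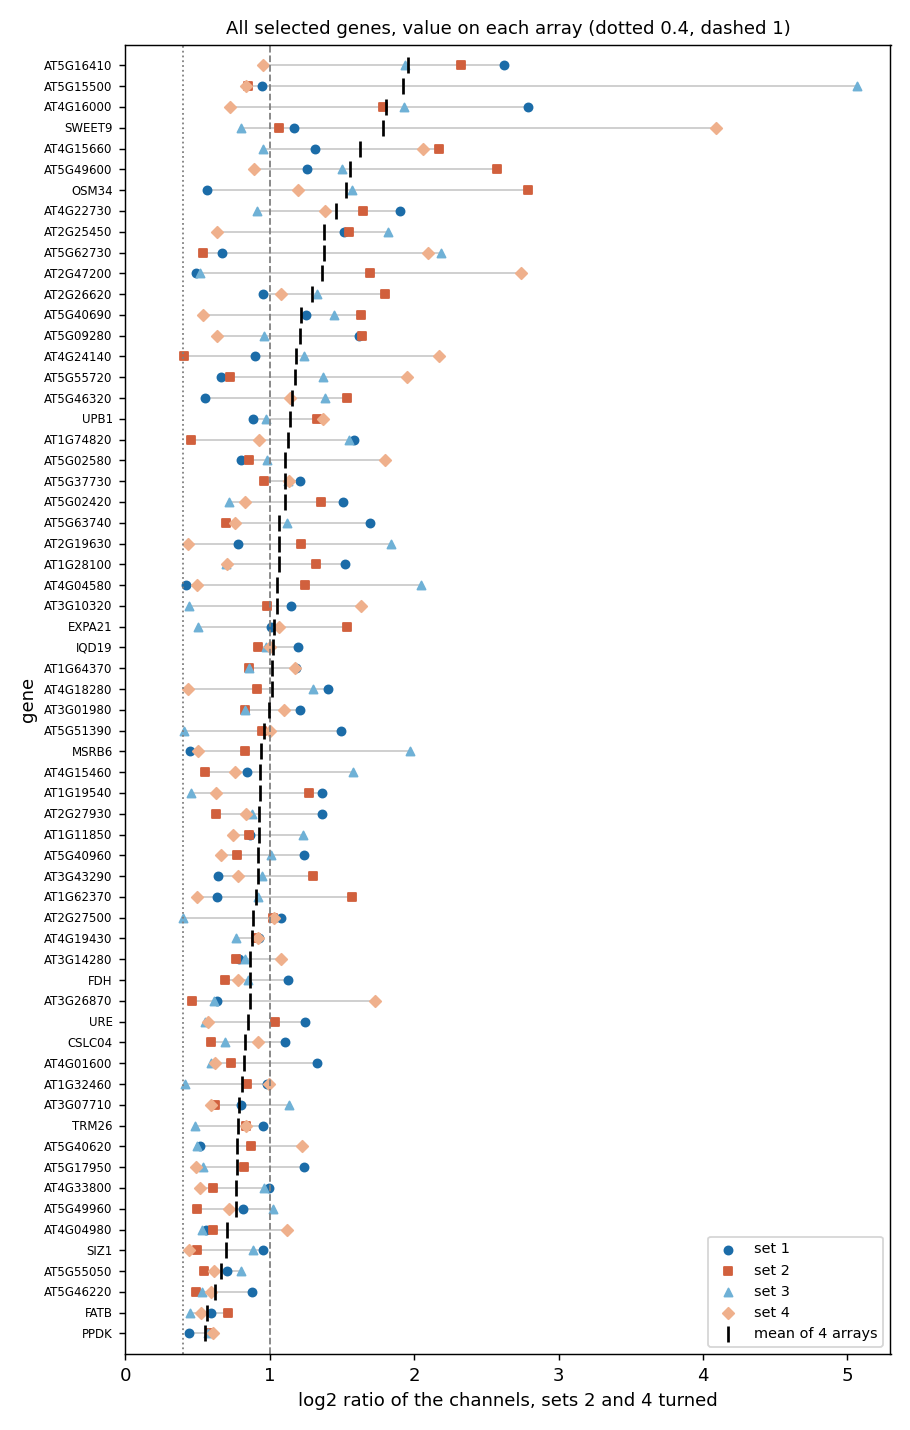
Log2 ratio of each of the 62 genes (rows) on each array (symbols and colours), with sets 2 and 4 turned. Black bars are means of 4 arrays and grey lines span the arrays. All points lie at or to the right of the dotted line at 0.4, and the genes are ordered by their mean, from 0.55 at the bottom to 1.96 at the top.

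Among the genes with a symbol, SWEET9 had the largest mean. SWEET9 (AT2G39060) is a sucrose transporter of the nectaries that is needed for nectar secretion. Its log2 ratios were 1.17, 1.06, 0.80 and 4.09 on sets 1 to 4, a mean of 1.78 ± 1.55 (SD, n = 4). The value on set 4 stood far above the other 3, which lay close together, and without set 4 the mean was 1.01.

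OSM34 (AT4G11650) encodes osmotin 34, of the thaumatin-like proteins related to pathogenesis-related family 5. It had 0.56, 2.79, 1.57 and 1.19 on sets 1 to 4, a mean of 1.53 ± 0.94. Its arrays were spread widely, with set 1 lowest and set 2 highest. MSRB6 (AT4G04840) encodes a methionine sulfoxide reductase, an enzyme class that repairs oxidised methionine. Its values were 0.45, 0.83, 1.97 and 0.50, a mean of 0.94 ± 0.71, in which set 3 was the 1 array above 1, and 0.59 without set 3.

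UPB1 (AT2G47270), or UPBEAT1, is a basic helix-loop-helix transcription factor known in roots for repressing peroxidase genes at the passage from division to elongation. It had 0.88, 1.33, 0.97 and 1.37 on sets 1 to 4, a mean of 1.14 ± 0.25. Both arrays with wild-type RNA in channel 1, sets 2 and 4, lay above both others. SIZ1 (AT5G60410), a SUMO E3 ligase that attaches the small modifier SUMO to target proteins, showed the opposite order. It had 0.95, 0.50, 0.89 and 0.44, a mean of 0.69 ± 0.26, with sets 1 and 3 above sets 2 and 4.

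A pair of the genes are tied to the cell wall. EXPA21 (AT5G39260) is an alpha-expansin, of the proteins that loosen walls during growth. It had 1.01, 1.54, 0.51 and 1.06 on sets 1 to 4, a mean of 1.03 ± 0.42. CSLC04 (AT3G28180) makes the glucan backbone of xyloglucan. It had 1.1, 0.59, 0.69 and 0.92, a mean of 0.83 ± 0.23. Set 2 was the highest array for EXPA21 and the lowest for CSLC04. Of the 18 genes found by cell wall words in the gene table, EXPA21 and CSLC04 were the 2 at 0.4 or more on every array, where 1.54% of all genes were. By limma 0 of the 18 were called in either direction, against 0.220% of all features. At an unadjusted p under 0.05 there were 9 of the 18, with GH9B8 and EXLB1 among them on the negative side. The share of all features at that p was not counted, so nothing is read from this number. The median mean ratio of the 18 was 0.14, and their means ran from -0.85 for GH9B8 to 1.03 for EXPA21. Other expansins went both ways, from 0.67 ± 0.54 for EXPB5 to -0.79 ± 0.50 for the expansin-like gene EXLB1. CSLA01, of the cellulose synthase-like family, had 0.92 ± 0.56 but 0.25 on set 2, which kept it outside the bounds.

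IQD19 and TRM26 belong to families tied to the cytoskeleton and to calmodulin. IQD19 (AT4G14750) has the IQ domain that binds calmodulin. Its values were 1.19, 0.92, 0.97 and 1.0 on sets 1 to 4, a mean of 1.02 ± 0.12, so its arrays lay close together near 2-fold. TRM26 (AT2G17550) carries a TON1 recruiting motif, and some members of that family act in microtubule arrays. It had 0.95, 0.83, 0.48 and 0.84, a mean of 0.78 ± 0.20, with set 3 below the other arrays.

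A further 4 genes encode metabolic enzymes. FDH (AT5G14780), a mitochondrial formate dehydrogenase, had 1.13, 0.69, 0.85 and 0.78 on sets 1 to 4, a mean of 0.86 ± 0.19. URE (AT1G67550), the urease that splits urea into ammonia and carbon dioxide, had 1.24, 1.04, 0.55 and 0.57, a mean of 0.85 ± 0.34. For URE the arrays fell into a higher pair, sets 1 and 2, and a lower pair, sets 3 and 4. FATB (AT1G08510), the thioesterase that releases saturated fatty acids from their carrier protein in plastids, had 0.59, 0.71, 0.45 and 0.52, a mean of 0.57 ± 0.11. PPDK (AT4G15530), which interconverts pyruvate and phosphoenolpyruvate, had 0.44, 0.59, 0.57 and 0.60, a mean of 0.55 ± 0.07. PPDK had both the smallest mean and the smallest spread of the 62 genes. For FATB and PPDK no array reached 1, and the means came to 1.48-fold and 1.46-fold.

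**Figure D2:**
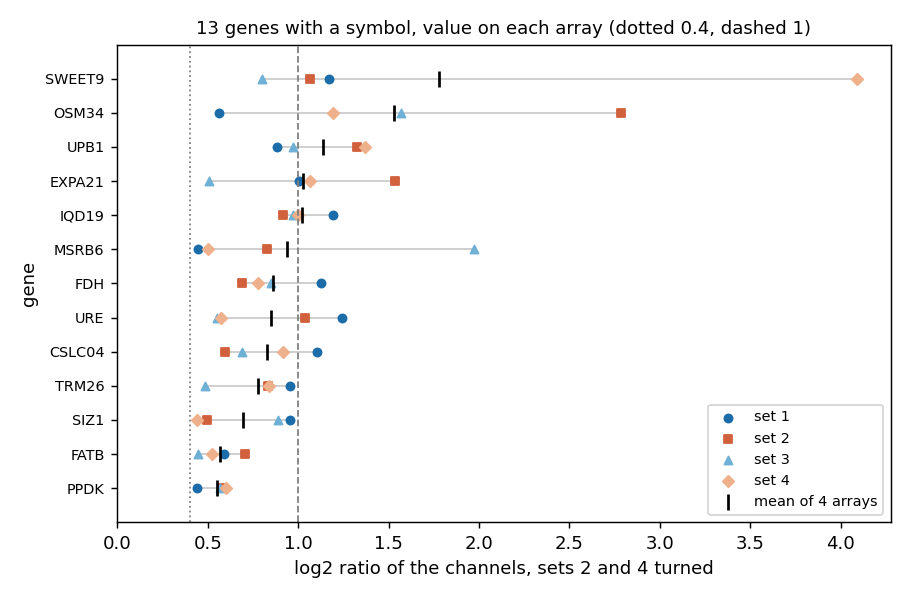
Log2 ratio on each array (symbols and colours) of the 13 genes with a symbol, ordered by mean (black bars), with sets 2 and 4 turned. PPDK, FATB and IQD19 have their arrays close together, whereas SWEET9 reaches 4.09 on set 4, OSM34 2.79 on set 2 and MSRB6 1.97 on set 3.

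Among genes known by locus, the largest means were those of AT5G16410 and AT5G15500, and their arrays differed in kind. AT5G16410 had 2.62, 2.33, 1.93 and 0.96 on sets 1 to 4, a mean of 1.96 ± 0.73. It came near to 1 on all 4 arrays, with set 4 alone below. AT5G15500 had 0.94, 0.85, 5.07 and 0.83, a mean of 1.92 ± 2.10. Without set 3 its mean was 0.88, so its place near the top rested on set 3. AT4G16000 had 2.79, 1.79, 1.93 and 0.72, a mean of 1.81 ± 0.85, with set 4 lowest as for AT5G16410.

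AT4G15660 had 1.31, 2.17, 0.95 and 2.06 on sets 1 to 4, a mean of 1.62 ± 0.59, and AT2G47200 had 0.49, 1.69, 0.52 and 2.74, a mean of 1.36 ± 1.08. In both genes sets 2 and 4 lay above sets 1 and 3, and without set 4 the mean of AT2G47200 was 0.90. AT5G49600 had 1.26, 2.57, 1.50 and 0.89, a mean of 1.56 ± 0.72. AT4G22730 had 1.90, 1.64, 0.91 and 1.39, a mean of 1.46 ± 0.42. AT2G25450 had 1.51, 1.55, 1.82 and 0.63, a mean of 1.38 ± 0.51. Each of these 3 genes was below 1 on a single array, set 3 for AT4G22730 and set 4 for the others.

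AT5G62730 had 0.67, 0.54, 2.19 and 2.10 on sets 1 to 4, a mean of 1.37 ± 0.89. Its arrays fell into a lower pair, sets 1 and 2, and a higher pair, sets 3 and 4, the reverse of URE. AT2G26620 had 0.95, 1.80, 1.33 and 1.08, a mean of 1.29 ± 0.37. AT5G40690 had 1.25, 1.63, 1.45 and 0.54, a mean of 1.22 ± 0.48. AT5G09280 had 1.61, 1.64, 0.96 and 0.64, a mean of 1.21 ± 0.50. Set 2 was the highest array in each of the last 3 genes. AT4G24140 had 0.90, 0.41, 1.24 and 2.17, a mean of 1.18 ± 0.75, with set 2 lowest and set 4 highest.

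Other genes were nearly alike on all 4 arrays. AT4G19430 had 0.93, 0.90, 0.76 and 0.91 on sets 1 to 4, a mean of 0.88 ± 0.08 from the average of 2 probes that were less alike singly, and AT5G37730 had 1.21, 0.96, 1.12 and 1.13, a mean of 1.11 ± 0.11. AT5G55050 had 0.71, 0.54, 0.80 and 0.61, a mean of 0.66 ± 0.11. AT3G14280 had 0.79, 0.76, 0.83 and 1.08, a mean of 0.87 ± 0.15. No array of AT4G19430 or AT5G55050 reached 1, and single arrays of the other pair fell on the far side of 1. AT5G46220 had 0.87, 0.49, 0.53 and 0.59, a mean of 0.62 ± 0.17. AT1G64370 had 1.18, 0.86, 0.86 and 1.18, a mean of 1.02 ± 0.19. Sets 1 and 4 matched in AT1G64370, as did sets 2 and 3.

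At the lower bound, the genes just inside were AT2G27500, AT5G51390, AT4G24140, AT1G32460 and AT4G04580, whose lowest arrays were 0.40, 0.40, 0.41, 0.42 and 0.42. AT2G27500 had 1.08, 1.02, 0.40 and 1.03 on sets 1 to 4, so 3 arrays lay near 2-fold and set 3 at the bound. AT5G51390 had 1.49, 0.95, 0.40 and 1.0, and AT1G32460 had 0.98, 0.84, 0.42 and 1.0, both with set 3 lowest as well. AT4G04580 had 0.42, 1.24, 2.05 and 0.50. Just outside were AT3G22560, AT1G71140, AT3G56540, AT2G31800 and AT3G19550, with lowest arrays from 0.39 to 0.40 and means of 0.71, 0.65, 0.53, 0.63 and 0.85. In all, 22 of the 62 genes had their lowest array under 0.5.

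At the upper bound, the genes nearest to 1 on all arrays were AT5G37730, AT5G16410, AT2G26620, AT4G15660 and IQD19, with lowest arrays of 0.96, 0.96, 0.95, 0.95 and 0.92. On the far side, AT4G28085, AT5G53810, AT1G20180, AT5G58570 and AT4G12530 had lowest arrays from 1.02 to 1.21. In all, 15 genes were at 1 or more on all 4 arrays. The left-out gene AT4G32460 had 1.30, 1.26, 1.46 and 0.99. The upper bound thus separated genes whose lowest arrays were close together.

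The other 26 genes had means from 0.70 to 1.18 and SDs from 0.19 to 0.61, and their single values ran from 0.43 to 1.95. With means of at least 1 these were AT5G55720, AT5G46320, AT1G74820, AT5G02580, AT5G02420, AT5G63740, AT2G19630, AT1G28100, AT3G10320 and AT4G18280. With means below 1 they were AT3G01980, AT4G15460, AT1G19540, AT2G27930, AT1G11850, AT5G40960, AT3G43290, AT1G62370, AT3G26870, AT4G01600, AT3G07710, AT5G40620, AT5G17950, AT4G33800, AT5G49960 and AT4G04980.

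A further 7 genes were at 0.4 or more on 3 arrays and had no usable value on the remaining one, so the rule could not take them. These were AT1G67130, AT2G05350, AT2G07200, AT3G30840, AT3G61500, AT5G16740 and RR23, with means over 3 arrays from 0.76 to 1.54. The missing value was at the deposited limit of plus or minus 6.64 in each of the 7. After turning, it was at the negative limit in 5 genes, on set 2 or 4, and at the positive limit in 2, on set 3. As deposited, all 7 were therefore at the upper limit. RR23, a response regulator by its symbol, had 0.56, 1.11 and 1.89 on sets 1, 2 and 4.

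Across arrays, the median of the 62 genes was 0.99, 0.86, 0.93 and 0.84 on sets 1, 2, 3 and 4. The medians of all 5051 genes were -0.02, -0.03, 0.01 and -0.04 on the same arrays. The shares of all genes at 0.4 or more were 15.9%, 15.8%, 13.1% and 11.1% on sets 1 to 4. Set 1 gave the highest value in 27 of the 62 genes, sets 2 and 3 in 11 each and set 4 in 13. Set 3 gave the lowest value in 20, set 4 in 16, set 2 in 15 and set 1 in 11.

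**Figure D3:**
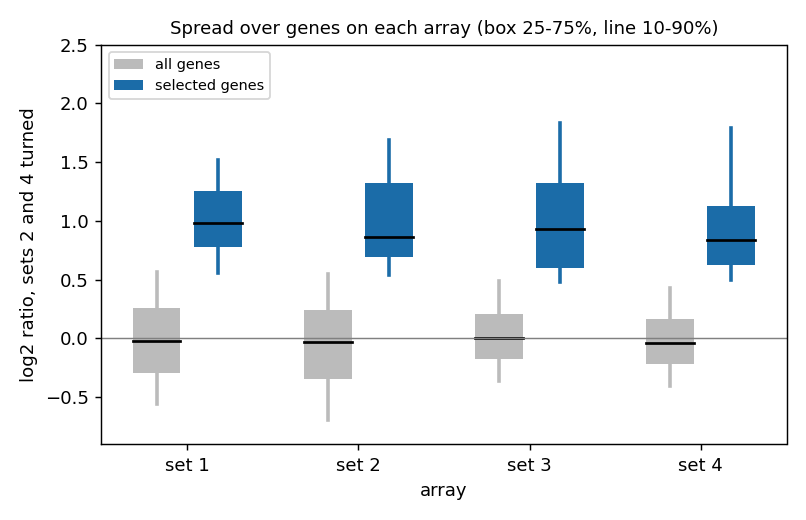
Distribution over genes of the log2 ratio on each array, for all 5051 genes (grey) and the 62 selected genes (blue), with sets 2 and 4 turned. Boxes span the quartiles, lines the 10th to 90th percentiles, and black bars are medians, which lie between -0.04 and 0.01 for all genes and between 0.84 and 0.99 for the selected genes.

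No fixed set of arrays carried the genes past 2-fold. Of the 62, 9 reached 1 on no array, 18 on 1 array, 21 on 2 arrays and 14 on 3 arrays. The 18 genes with a single array at 1 or more were split over sets 1, 2, 3 and 4 as 5, 2, 6 and 5. The median SD over arrays was 0.40 for the 62 genes and 0.28 for all 5051, and 21 of the 62 had an SD below the latter. The range over arrays was under 0.5 in 15 genes and over 1.5 in 11.

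The rule required 0.4 or more on every array, whatever its channel order, but set no ceiling on a single array. Differences between arrays of opposite channel order are therefore given as a description. The mean of sets 1 and 3 minus the mean of sets 2 and 4, after turning, had a median of 0.07 on the log2 scale. It was positive in 34 genes and negative in 28, and its size was under 0.4 in 39 and larger in the others. The extremes were 2.16 in AT5G15500 and -1.71 in AT2G47200. Both arrays of sets 1 and 3 lay above both of sets 2 and 4 in 15 genes, and the reverse held in 7.

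In the fit across all 25415 features, 1 of the 62 genes, AT5G37730, was called on the positive side by limma at an adjusted p below 0.05, against 0.197% of all features. The rule chose the genes on the same values, so nothing is read from this count. Without any 1 of the 4 replicates AT5G37730 was not called, and without replicate 4 AT5G16410 was called in its place.

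Probes were the next level at which the genes could be compared. A single probe stood for 57 of the 62 genes, and 5 had 2 probes. For FATB the probes had means of 0.53 and 0.60, for AT4G19430 0.86 and 0.90, and for FDH 0.90 and 0.82. The means of each pair were close, but single arrays were not. The FDH probes had 1.13 and 0.25 on set 2 and 0.57 and 1.14 on set 3, and a FATB probe had 0.36 on set 3. The probes of AT4G19430 ran in different orders, 0.86, 1.15, 0.71 and 0.71 against 0.99, 0.66, 0.81 and 1.12 on sets 1 to 4. The probes of AT2G25450 had means of 1.13 and 1.62 and were both positive on every array, with 0.31 on set 4 for the lower one. In AT3G26870 the probes disagreed. One had 1.31, 0.46, -0.10 and 1.73 on sets 1 to 4, and the other had -0.04 on set 1, 1.33 on set 3 and no usable value on sets 2 and 4. Its average passed the lower bound on sets 1 and 3, although on each of these arrays 1 of the probes lay just below 0. Set 4 gave its highest average, and without set 4 its mean was 0.57.

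Spots that the rule did not use gave a further view of some of the loci. The annotation lists 27 of the 62 genes on 28 more probes, each shared with 1 to 4 other genes, and 27 of these probes had a value. Their mean log2 ratios had a median of 0.03, close to the -0.01 of all probes shared by several genes, and ran from -0.50 to 2.19. For the same 26 genes the median from their own probes was 1.05. The mean of the shared probe was positive in 15 cases and negative in 12, and it was 0.4 or more in 7. Of the 25 shared probes with 4 values, 1 was at 0.4 or more on each array, against 1.72% of all 6984 such probes, and 5 were below 0 on every array. A shared probe may report any of its genes, so a value near 0 does not speak for the selected gene.

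The shared probes with the largest ratios were those listing EXPA21, AT3G10320, AT2G25450 and AT4G15660. The probe listing AT2G25450 had values on sets 1 and 3 only, 0.71 and 2.46, so its mean of 1.59 covers arrays of a single channel order. The probe listing EXPA21 and 3 other genes had 2.20, 3.52, 1.91 and 1.12 on sets 1 to 4. Set 2 was highest as for the probe of EXPA21 alone, but set 4 was lowest, where that probe was lowest on set 3. The probe listing AT3G10320 had 1.71, 1.54, 0.21 and 3.11, with set 4 highest and set 3 lowest as for that gene. The probe listing AT4G15660 had 1.01, 0.01, 0.67 and 2.50, lowest on set 2, where the gene's own probe was highest. At the other end, the probe listing AT4G22730 had -0.35, -0.85, -0.36 and -0.43. The probe listing IQD19 had -0.34, -0.33, -0.13 and -0.45, below 0 on every array where the probe of IQD19 alone was near 1.

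**Figure D4:**
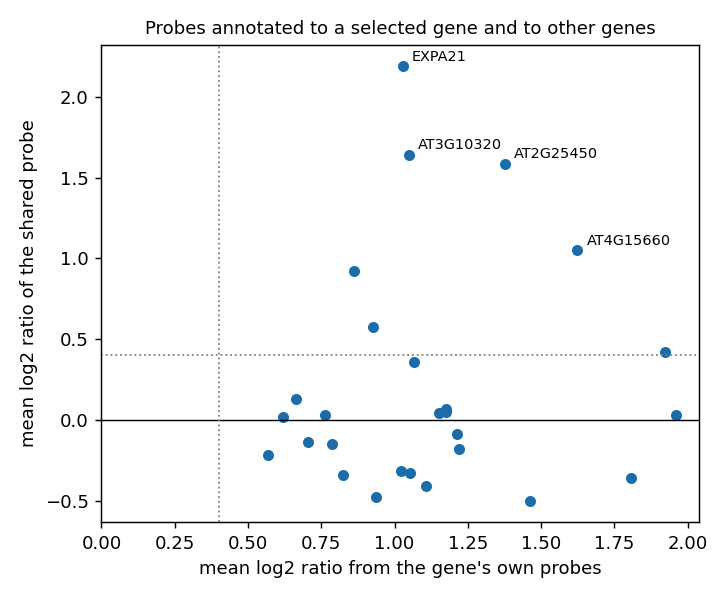
Mean log2 ratio of the 27 probes annotated to a selected gene together with other genes (vertical axis) against the mean from that gene's own probes (horizontal axis), with sets 2 and 4 turned. Dotted lines mark 0.4. Most shared probes scatter around 0, with a median of 0.03, and the probes listing EXPA21, AT3G10320, AT2G25450 and AT4G15660 lie highest.

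The genome position of the genes was taken from their locus names. Chromosomes 1 to 5 held 9, 9, 7, 15 and 22 of the 62 genes. This was 0.706%, 1.20%, 0.633%, 2.05% and 1.85% of the genes measured on each, against 1.25% of all 5051 within the bounds. Chromosome 4 thus held 24.2% of the 62 genes and 14.5% of all measured genes. No chance test was made of these shares, and the AP1 locus lies on chromosome 1.

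Of the 62 genes, 3 pairs lay within 10 places of each other in the gene table. This was 0.159% of their 1891 possible pairs, against 0.0618% of the pairs of all 5051 genes, with no chance test made. The pairs were AT2G47200 with UPB1, AT4G15460 with PPDK, and AT5G40620 with AT5G40690. The 182 other measured genes within 10 places of a selected gene had a median mean ratio of -0.02, and 1 of them was at 0.4 or more on each array. With the 62 genes taken out, only AT4G32460 and the 15 genes at 1 or more on all 4 arrays could meet that bound. Nothing is therefore read from this count.

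A looser grouping, picked out after the values were seen, was on chromosome 4 from IQD19 to AT4G16000. This stretch spans 178 genes of the table, of which 31 were measured, and it held 5 of the 62 genes: IQD19, AT4G15460, PPDK, AT4G15660 and AT4G16000. A sixth gene there, AT4G15750, was at 1 or more on every array, with a mean of 2.30. AT4G15650, the gene next to AT4G15660, had 0.70, 0.71, 0.25 and 0.66 on sets 1 to 4 and missed the bound on set 3 alone. AT4G15980, close to AT4G16000, had 0.79, 0.40, 0.30 and 1.46 and likewise missed it on set 3 alone. AT4G15040 had a mean of 0.74 that rested on 2.39 on set 3. Over the 26 measured genes of the stretch that were not selected, the median mean was -0.06. Of all 31, 15 had positive and 16 negative means.

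**Figure D5:**
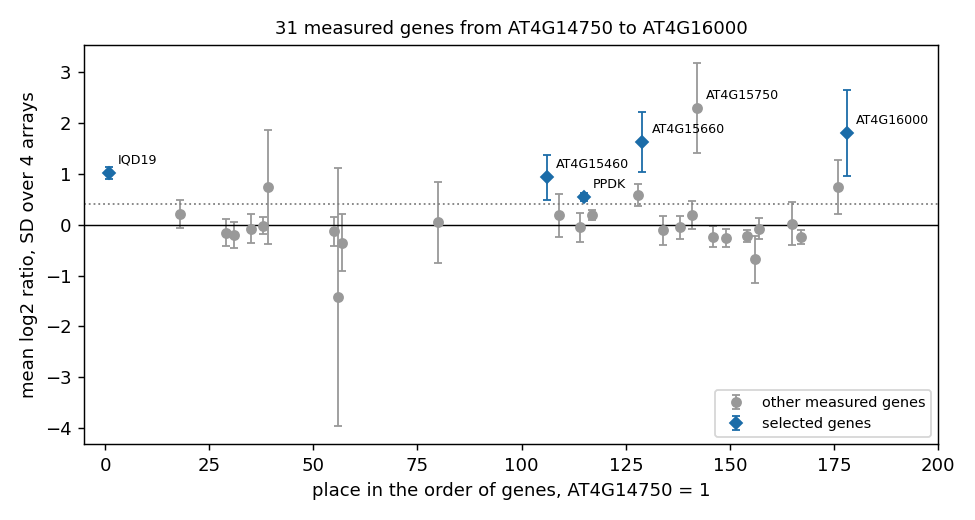
Mean log2 ratio (points, with SD over 4 arrays) of the 31 measured genes from AT4G14750 (IQD19) to AT4G16000 on chromosome 4, by place in the gene order, with sets 2 and 4 turned. The 5 selected genes (blue diamonds), AT4G15750, AT4G15040, AT4G15650 and AT4G15980 have means above 0.4, and the other 22 genes lie below it.

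By words in symbols and synonyms, few of the genes could be placed in a family. Besides the cell wall pair, PPDK was 1 of 3 genes matched by the word kinase, through the name dikinase. None of the 22 protease or peptidase genes, 20 UDP-glycosyltransferases, 16 MADS-box genes, 11 F-box and ubiquitin genes, 6 bZIP genes or 6 cytochrome P450 genes measured on 4 arrays was among the 62. A UDP-glycosyltransferase, UGT85A5, was at 0.4 or more on every array and was called by limma, and lay outside the 62 because it reached 1 on all 4. The median mean ratios of these groups were -0.08, 0.08, -0.02, -0.03, 0.15 and -0.04. At 1.25% of all genes within the bounds, groups of this size would hold few or no such genes in any case.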

How the data were processed

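The authors deposited log2 ratios between the channels of each array, normalized by a published method per the labels. The base follows from the values, which stop at plus and minus the log2 of 100. The sources used here do not give the software, background correction, dyes or numerator. Column medians over probes were -0.00, 0.06, 0.04 and 0.03, and no further centring was applied. Value columns belonging to no sample numbered 0. Values within 0.0001 of a limit were left out, and sets 2 and 4 were turned.

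The platform annotation assigned 5784 probes to 1 gene and 7497 to several. Of the former, 5756 matched a locus of the TAIR10.1 gene table, used for names and gene order only, which gave 5415 genes. Probes of a gene were averaged per array. Other probes were kept as single features.

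Each feature's mean was compared with 0 by limma 3.58.1 in R 4.3.3 over 25415 features with at least 3 values, with Benjamini-Hochberg adjustment, called below 0.05. The fit was also run on simulated ratios, with known changes added to some features. No alternation with channel order was simulated, so that run does not bear on the orientation of the columns. The 36 genes given with every array are the 15 with the largest means, the 10 with the smallest SDs, those nearest the bounds, those with a symbol and the called one. The genes, lists and tests were chosen with earlier results of these data known. Promoter and protein features had been planned but were not analysed here.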

Additional observations from a re-analysis of the deposited data

Results flagged for a closer look

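In 6 of the 62 genes 1 array stood apart from the other 3 by Dixon's ratio, above its critical value for 4 values. Chance picks out about 1 group in 20, and genes bounded from below on every array need not follow that rate. The array apart was set 3 in 3 genes and set 4 in 3. It was high in 4 genes: AT5G15500, with a log2 ratio of 5.07 on set 3, SWEET9 (AT2G39060), with 4.09 on set 4, AT3G26870, with 1.73 on set 4, and AT4G04980, with 1.12 on set 4. It was low in AT2G27500, with 0.40 on set 3, and in AT4G19430, with 0.76 on set 3.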

How the results depend on the processing

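The number of genes within the bounds, 62, was 63 with limit values kept, 63 with each array centred, 70 with arrays scaled, 67 with quantile normalization and 58 where every probe had to meet the bound. It was 114 with a lower bound of 0.3 and 40 with 0.5. Leaving out 1 replicate, with both bounds applied to the remaining arrays, gave 73 to 122 genes (73, 96, 120 and 122 without replicates 1 to 4). These shared 59, 61, 57 and 57 with the 62. With no array turned, 6 genes met the rule, sharing 0 with the 62. Keeping limit values without turning, an alternative chosen after the data were seen, gave 36, sharing 1. For the same 62 genes, chosen on all 4 arrays, the median ratio of 1.0 ran from 0.96 to 1.0 without 1 replicate. For them it was 0.036 with no array turned and 0.047 when limit values were also kept. With the bound at 0.3 it was 0.78, over the 114 genes then within the bounds. With no array turned, 28 of the 62 means were negative. The 36 single genes moved by less than their SD over arrays with arrays centred, scaled or quantile normalized. Leaving out 1 of 4 values cannot move a mean by as much as its SD, so those runs are no check on single genes. Keeping limit values left the 36 means unchanged. In each of the 2 alternatives without turning, 34 moved further than their SD. Called by limma were 2 of the 62 with arrays centred, 1 with arrays scaled and 8 with robust eBayes. There were 9 among features measured on all 4 arrays, and 0 to 1 without 1 replicate. Of all features, those fits called 56, 40, 109 and 140, and 0, 1, 30 and 38 without replicates 1 to 4. With arrays scaled, AT4G22730 was called in place of AT5G37730. The count among the 62 was 0 with limit values kept, with quantile normalization, with a term for channel order, at an adjusted threshold of 0.01, without turning, and without turning but with limit values kept. Of all features, these last 6 fits called 1, 18, 1, 1, 0 and 152. At an unadjusted p under 0.05 they held 60, 62, 62, 62, 0 and 1 of the 62 genes, a share not counted over all features. The rule chose the genes on the same values, so nothing is read from these counts. Why the counts moved was not tested. No paired analysis was possible because the pairing is already within each ratio, which sets both RNAs of an array against each other, and no replicate number is shared between arrays.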
